A study of Mus musculus with 12 samples.

Results

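Solute carriers are the membrane proteins that move amino acids, sugars, ions, metals, vitamins, nucleotides and lipids across membranes, and their symbols in mouse begin with Slc or Slco. Their mRNAs were examined by RNA-Seq in the mouse mammary tumour line 4T1, in stable transfectants of METTL7A1 or of the empty vector (mock), after RNA had been divided into a sub-polysomal and a polysomal pool. Members were chosen by symbol and by level: a gene whose symbol has the form Slc, number, a, number or begins with Slco, with at least 1 CPM (here the count scaled to the library total) in at least 3 of the 12 libraries. Of 366 genes with such a symbol, 2 (Slc2a1 and Slc11a2) were left out by name, 196 fell below the limit, 106 of them with no count in any library, and 168 were kept out of 12224 genes that met the limit. The values that chose the members were their levels, not a difference between groups. The third-highest CPM was 1.09 for Slc5a5, 1.11 for Slc52a3 and 1.22 for Slc2a5, just inside the limit, and 0.999 for Slc24a5, 0.994 for Slc38a3 and 0.967 for Slc23a3, just outside it. No member reached 1 CPM in libraries of 1 group only, and 144 did so in all 12 libraries. Slc25a53 and Slc2a5 did so in libraries of 1 genotype only, and Slc25a35 and Slc5a5 in libraries of 1 pool only. The members were 21 carriers of amino acids, 22 of metals, 40 of the Slc25 family and 85 others. The Slc25 family is called mitochondrial carriers below, though Slc25a17 is a peroxisomal member. The others include 5 genes that are named after a carrier without being one.

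Each of the 4 groups had 3 libraries: mock sub-polysomal and mock polysomal RNA (replicates A to C), and METTL7A1 sub-polysomal and METTL7A1 polysomal RNA (replicates D to F). Both lines received cycloheximide at 0.1 mg/ml for 5 min, which holds ribosomes on the mRNA, before lysis and sedimentation of the extract through a sucrose gradient. Fractions 3 to 7, with free ribosomal subunits and monosomes, were pooled as sub-polysomal RNA, while polysomes lay in fractions 8 to 11, pooled as polysomal RNA. METTL7A1 is a putative methyltransferase that the transfected vector supplies in addition to the endogenous gene. Whether a line was 1 clone or a mixed population is not given in the sources used here. The polysome profiles are described as coming from independent fractionations of biological replicates, but how each library relates to a culture is not stated, so the p-values measure the spread between these libraries.

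Plasma membrane carriers, metal transporters of the secretory pathway and the Slc25 proteins, mostly of the inner mitochondrial membrane, are all membrane proteins with several transmembrane segments. Most of the first kinds are made by ribosomes bound to the endoplasmic reticulum, while most Slc25 proteins are made in the cytosol and imported into mitochondria. Transport of glutamine, cystine, folate, glucose, zinc and chloride by these proteins sets the supply of nutrients and the volume of tumour cells. An mRNA that carries many ribosomes sediments with the polysomes, and one that carries none or 1 stays in the sub-polysomal pool.

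Total counts per library lay between 1817520 and 6966156, so that 3 counts equalled 0.431 to 1.65 CPM of the library total, and members held 0.801 to 0.905% of the counts in sub-polysomal and 1.15 to 1.40% in polysomal libraries. Mettl7a1 had 1.26 to 3.28 CPM in the 6 mock and 236 to 395 CPM in the 6 METTL7A1 libraries. All 7 epithelial markers of 4T1 cells passed the limit, among them the keratin gene Krt8 at 356 to 1373 CPM, and between genotypes 3 were higher and 0 lower on polysomes, and 1 was higher and 1 lower below them. Of the markers of other cell types, Pdgfra, 1 of 5 fibroblast genes, passed, against 0 of 5 immune, 0 of 3 endothelial and 0 of 3 adipocyte genes, and Pdgfra did not pass the test between genotypes in either pool. The levels of Mettl7a1 and Krt8, and all levels of members below, are CPM scaled by TMM factors as well, which were 0.806 to 0.977 for sub-polysomal and 1.11 to 1.23 for polysomal libraries and so lower polysomal values relative to sub-polysomal ones. With these factors a fit of all 12 libraries by edgeR gave a quasi-likelihood test of each contrast, with Benjamini-Hochberg adjustment over the 12224 genes. Below, a gene rose or fell if its adjusted p was below 0.01, and it was called if its log2 change was also beyond 1.5 either way.

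Levels between genes can be compared only per length of exon. By mean CPM per kb over the 12 libraries, the most abundant mitochondrial carrier mRNAs were Slc25a3, the phosphate carrier, with 523, Slc25a5, an ADP/ATP carrier, with 430.2, and Slc25a39, needed for import of glutathione into mitochondria, with 408. Among other carriers, Slc20a1, a phosphate importer, reached 98.3, the nucleoside carrier Slc29a1 83.2 and the lactate carrier Slc16a1 76.9 CPM per kb. Among amino acid carriers, Slc3a2, the heavy chain that brings several Slc7 light chains to the membrane, had 84.6, the glutamine importer Slc1a5 81.7 and the leucine carrier Slc7a5 59.9 CPM per kb. The metal carriers were led by the zinc carriers Slc39a1 with 68.2, Slc39a13 with 53.6 and Slc30a5 with 25.4 CPM per kb. All 12 of these mRNAs rank by level, which was also a criterion of the choice of members, so the order is a description. The mean weighs both pools alike, and how much RNA each pool held is not given in the sources used here. The rank of Slc25a39 rests on its sub-polysomal libraries, since its polysomal levels, given further on, were much lower.

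METTL7A1 and mock cells were compared within each pool, which asks whether the pool of RNA on polysomes, or below them, holds other amounts of a carrier mRNA. In polysomal RNA, 19 of the 168 carrier mRNAs (11.3%) were higher and 4 (2.38%) lower in METTL7A1 cells, beside 5.03% higher and 3.78% lower among all genes tested. In sub-polysomal RNA, 28 (16.7%) were higher and 7 (4.17%) lower, beside 10.5% and 7.69% of all genes. Calls, with a log2 change beyond 1.5, numbered 8 in each pool (4.76% of members), beside 2.13% of all genes on polysomes and 2.76% below them. The median log2 change of the members was 0.21 in either pool, against -0.01 for all genes in polysomal and 0.00 in sub-polysomal RNA. Among the 135 members with a mean of at least 5 CPM, 17 rose and 2 fell on polysomes, against 28 and 4 below them. The share of all genes at that level was not counted, so these counts have no background beside them. The counts that were higher came mostly from the other carriers, which gave 13 of 19 on polysomes and 19 of 28 below them. These carriers were 85 of the 168 members, and 15.3% of them were higher on polysomes and 22.35% below them. In both pools alike, 11 mRNAs were higher, which is 57.9% of the polysomal and 39.3% of the sub-polysomal list, and Slc25a30 and Slc44a3 were lower in both. In bulk libraries such as these, fewer cells with an mRNA and less of it per cell cannot be told apart. Without METTL7A1 polysomal replicate D, 5 members were called on polysomes in place of 8, and without mock polysomal replicate B, or METTL7A1 polysomal replicate D, E or F, 2 were lower there in place of 4. Without METTL7A1 sub-polysomal replicate E or F, 4 were lower below polysomes in place of 7. Scaled to Actb, the beta-actin mRNA, 39 were higher and 4 lower in sub-polysomal RNA. Genes named below were taken by size of change, level and p-value within each carrier group, and those with a mean under 5 CPM other than Slc7a11, and Slc12a2, Slc26a11, Slc52a2, Slc29a2, Slc1a4, Slc7a7, Slc7a1, Slc36a4, Slc38a2, Slc25a28, Slc25a37 and Slc7a6os, were picked after their values were seen.

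**Figure D1:**
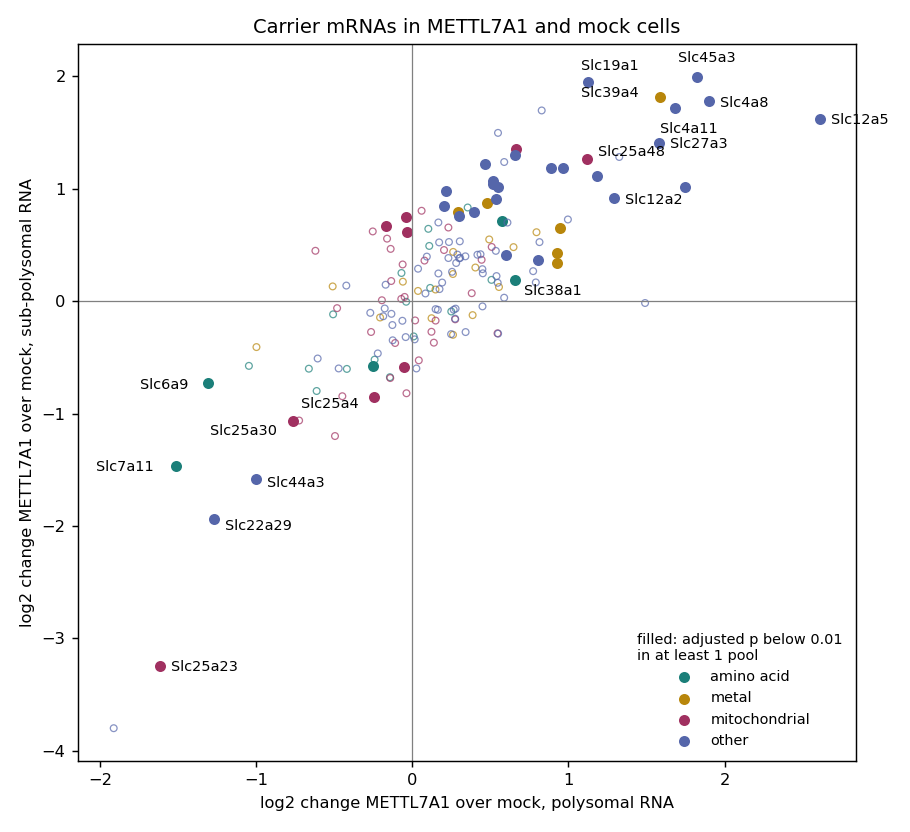
Log2 change of each of the 168 carrier mRNAs between METTL7A1 and mock cells, in polysomal RNA (horizontal axis) and sub-polysomal RNA (vertical axis), coloured by carrier group and filled where the adjusted p was below 0.01 in at least 1 pool. Most filled points lie at upper right, where 11 mRNAs were higher in both pools, and few at lower left.

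The carriers of ions made up the largest set among those that rose in polysomal RNA. Of 24, 7 (29.2%) were higher and 0 lower there, beside 5.03% and 3.78% of all genes. In sub-polysomal RNA, 6 of 24 (25%) were higher and 0 lower, beside 10.5% and 7.69%. The largest polysomal log2 change among them, 2.615 for Slc12a5, rests on counts of 2, 4 and 2 in mock and 20, 15 and 13 in METTL7A1 libraries. Slc12a5 met the level limit for members mainly through METTL7A1 libraries. Slc4a11, a proton-conducting relative of the bicarbonate carriers (chr2:130684113-130697519, GRCm38, minus strand), had 24.3, 22.3 and 26.3 CPM in mock and 85.6, 77.7 and 70.6 CPM in METTL7A1 polysomal libraries. It had 20.9, 27.1 and 19.3 CPM in mock and 78.9, 75.9 and 67.2 CPM in METTL7A1 sub-polysomal libraries. The groups did not overlap in either pool, and the mRNA was 3.21-fold higher on polysomes (log2 change 1.68 ± 0.15 SE, edgeR adjusted p = 2.65e-07) and 3.30-fold higher below them (log2 change 1.72 ± 0.16 SE, edgeR adjusted p = 7.48e-07). Slc4a8, a sodium-driven exchanger of chloride for bicarbonate (chr15:100761747-100823968), had 5.74, 4.40 and 3.72 CPM in mock against 21.5, 15.7 and 14.5 CPM in METTL7A1 polysomal RNA (log2 change 1.90 ± 0.22 SE, edgeR adjusted p = 6.71e-06). In sub-polysomal RNA it had 1.69, 3.46 and 2.37 CPM in mock against 7.63, 10.7 and 8.37 CPM in METTL7A1 cells (log2 change 1.78 ± 0.33 SE, edgeR adjusted p = 4.83e-04), so that every METTL7A1 library again lay above every mock library. Slc12a2 and Slc26a11, a sulfate carrier-like protein, also rose in both pools. Slc12a2, the sodium, potassium and chloride cotransporter of epithelia, changed by 1.29 ± 0.16 (SE, edgeR adjusted p = 1.98e-05) in polysomal and by 0.91 ± 0.17 (SE, edgeR adjusted p = 5.79e-04) in sub-polysomal RNA on the log2 scale.

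Slc19a1, the importer of reduced folate (chr10:77032684-77050432), had the lowest p-value of all members in sub-polysomal RNA. Its levels there were 46.8, 44.4 and 40.3 CPM in mock and 202, 165 and 137 CPM in METTL7A1 libraries (log2 change 1.95 ± 0.16 SE, edgeR adjusted p = 1.46e-07). On polysomes they were 63.5, 58.7 and 72.8 CPM in mock and 153, 141 and 132 CPM in METTL7A1 libraries (log2 change 1.12 ± 0.15 SE, edgeR adjusted p = 2.80e-05). METTL7A1 libraries were thus 3.86-fold higher below the polysomes and 2.18-fold higher on them, without overlap in either pool. Of the 9 carriers of nucleosides and vitamins, 3 (33.3%) were higher on polysomes and 0 lower, beside 5.03% and 3.78% of all genes. Below polysomes 3 were likewise higher and 0 lower, beside 10.5% and 7.69%. The riboflavin carrier Slc52a2 was in both sets, the ascorbate carrier Slc23a2 in the polysomal set alone (0.60, with 0.42 in sub-polysomal RNA), and the nucleoside carrier Slc29a2 in the sub-polysomal set alone (1.22, with 0.47 on polysomes). The difference between pools for these genes is the shift tested further on, which none of them passed.

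Slc45a3, a sugar carrier best known from prostate epithelium (chr1:131962967-131982969), had 5.08, 5.67 and 3.95 CPM in mock and 23.9, 17.4 and 16.5 CPM in METTL7A1 sub-polysomal RNA (log2 change 2.00 ± 0.23 SE, edgeR adjusted p = 7.75e-06). On polysomes it had 5.60, 5.22 and 6.95 CPM in mock and 21.6, 21.7 and 19.7 CPM in METTL7A1 libraries (log2 change 1.82 ± 0.18 SE, edgeR adjusted p = 1.25e-06). It was the only one of 13 sugar carriers past the threshold in either pool, with 1 of 13 higher and 0 lower in each. Of all genes, 5.03% were higher and 3.78% lower on polysomes, and 10.5% and 7.69% below them. Slc27a3, of the family that activates and takes up fatty acids, had 4.92, 4.12 and 4.84 CPM in mock and 14.5, 14.5 and 12.6 CPM in METTL7A1 polysomal libraries (log2 change 1.58 ± 0.20 SE, edgeR adjusted p = 1.90e-05). In sub-polysomal RNA Slc27a3 rose by 1.41 ± 0.24 (SE, edgeR adjusted p = 2.44e-04) on the log2 scale. Slc44a3, a member of the choline carrier-like family with a mean of 4.21 CPM, fell in both pools, by a log2 change of -1.00 ± 0.23 (SE, edgeR adjusted p = 0.00532) on polysomes and -1.58 ± 0.31 (SE, edgeR adjusted p = 7.25e-04) below them.

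**Figure D2:**
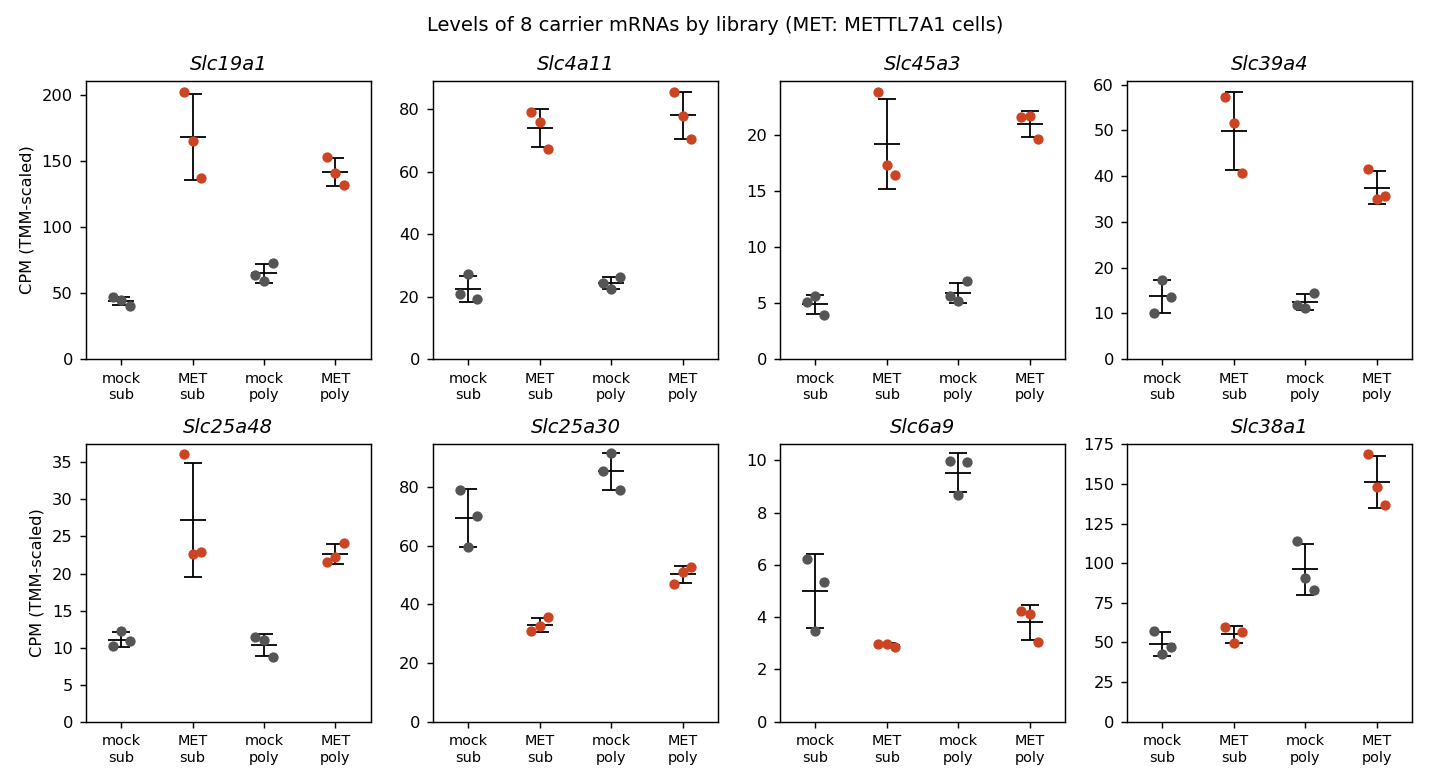
TMM-scaled CPM of 8 carrier mRNAs in the 3 libraries of each group, with points for libraries and bars for the mean ± SD, on linear axes from 0. The METTL7A1 points of Slc19a1, Slc4a11, Slc45a3, Slc39a4 and Slc25a48 lie above all mock points in both pools, those of Slc25a30 and Slc6a9 lie below them, and those of Slc38a1 lie above them on polysomes alone.

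Of the 22 metal carriers, 4 (18.2%) were higher in METTL7A1 polysomal RNA, beside 5.03% of all genes. In sub-polysomal RNA 3 (13.6%) of these carriers were higher, beside 10.5%, and 0 were lower in either pool. Their median log2 change was 0.34 on polysomes and 0.27 below them. Slc39a4, an importer of zinc (chr15:76612383-76617384, minus strand), had 11.7, 11.1 and 14.4 CPM in mock and 41.6, 35.1 and 35.7 CPM in METTL7A1 polysomal libraries (log2 change 1.59 ± 0.17 SE, edgeR adjusted p = 3.37e-06). Its sub-polysomal levels were 10.2, 17.3 and 13.6 CPM in mock and 57.4, 51.6 and 40.6 CPM in METTL7A1 libraries (log2 change 1.82 ± 0.19 SE, edgeR adjusted p = 2.75e-06), again without overlap. The other metal carriers that rose passed the threshold in 1 pool each. This does not show a difference between the pools, since the shift tested further on passed for 0 of the 22. On polysomes these were the zinc importer Slc39a6 (0.93 ± 0.17 SE, edgeR adjusted p = 7.33e-04), Slc39a7, which releases zinc from the endoplasmic reticulum (0.93 ± 0.23 SE, edgeR adjusted p = 0.00816), and the magnesium carrier Slc41a2 (0.94 ± 0.19 SE, edgeR adjusted p = 0.00206). In sub-polysomal RNA they were the zinc carriers Slc39a3 (0.88 ± 0.20 SE, edgeR adjusted p = 0.00296) and Slc39a13 (0.79 ± 0.14 SE, edgeR adjusted p = 3.19e-04). Slc39a7 shares 84.5% of its counted exon bases with Gm20427 on the same strand, and how reads in shared bases were assigned is not given in the sources used here. With offsets that took out the dependence of counts on GC content in each library, 7 metal carriers were higher on polysomes and 1 below them. Genes of zinc and copper handling outside the family are given for comparison: 0 of the 6 measured of 7 listed passed in either pool, and the metallothionein gene Mt1, whose product binds zinc, had a log2 change of 0.19 ± 0.34 (SE, edgeR adjusted p = 0.76) on polysomes and 0.31 ± 0.30 (SE, edgeR adjusted p = 0.454) below them.

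Amino acid carriers had no common direction. On polysomes 1 of 21 (4.76%) was higher and 2 (9.52%) were lower in METTL7A1 cells, beside 5.03% and 3.78% of all genes. Below polysomes 1 of these carriers was higher and 1 lower (4.76% each), beside 10.5% and 7.69%. Their median log2 change was -0.07 on polysomes and -0.12 below them, which turned to 0.03 and 0.15 when libraries were scaled to Actb, a scaling that moved the median of all genes to 0.08 and 0.26 in these contrasts. The mRNA that rose on polysomes was Slc38a1, a sodium-coupled importer of glutamine (chr15:96571418-96642913, minus strand), with 114, 90.7 and 83.3 CPM in mock and 169, 148 and 137 CPM in METTL7A1 libraries (log2 change 0.66 ± 0.15 SE, edgeR adjusted p = 0.00445). In sub-polysomal RNA its groups overlapped, with 57.6, 42.5 and 47.2 CPM in mock and 59.7, 49.4 and 56.9 CPM in METTL7A1 libraries (log2 change 0.19 ± 0.16 SE, edgeR adjusted p = 0.409). Slc1a5, which exchanges glutamine for other neutral amino acids, rose in sub-polysomal RNA, from 143, 141 and 129.5 CPM in mock to 281, 223 and 176 CPM in METTL7A1 libraries (log2 change 0.72 ± 0.17 SE, edgeR adjusted p = 0.00423). On polysomes it had a log2 change of 0.57 ± 0.17 (SE, edgeR adjusted p = 0.0236). With the GC offsets the sub-polysomal change of Slc1a5 was 0.30 and did not pass.

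Slc6a9, the glycine importer (chr4:117834506-117869305), fell on polysomes, from 9.97, 8.66 and 9.93 CPM in mock to 4.25, 4.11 and 3.03 CPM in METTL7A1 libraries (log2 change -1.31 ± 0.21 SE, edgeR adjusted p = 3.04e-04). Every METTL7A1 library was below every mock library there, and also in sub-polysomal RNA (6.21, 3.46 and 5.33 CPM against 2.98, 2.98 and 2.87 CPM), where the change did not pass (log2 change -0.73 ± 0.31 SE, edgeR adjusted p = 0.0779). Of the exon bases of Slc6a9, 38.8% overlap Ccdc24 on the opposite strand, and whether the counting used strand is not given in the sources used here, so reads of the 2 genes cannot be told apart. Slc6a6, the importer of taurine, fell in sub-polysomal RNA, from 55.3, 55.7 and 51.9 CPM to 42.4, 35.98 and 31.1 CPM (log2 change -0.58 ± 0.16 SE, edgeR adjusted p = 0.00964), with -0.25 ± 0.14 (SE, edgeR adjusted p = 0.236) on polysomes.

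Slc7a11, the light chain of the cystine and glutamate exchanger (chr3:49892526-50443614, minus strand), was the amino acid carrier with the most negative log2 change in both pools. On polysomes it had 8.19, 5.09 and 3.10 CPM in mock and 2.33, 2.18 and 1.01 CPM in METTL7A1 libraries (log2 change -1.52 ± 0.36 SE, edgeR adjusted p = 0.00606). In sub-polysomal RNA it had 2.26, 3.46 and 2.96 CPM in mock and 0.995, 0.993 and 1.20 CPM in METTL7A1 libraries, and this change did not pass (log2 change -1.46 ± 0.56 SE, edgeR adjusted p = 0.0508). All METTL7A1 libraries were lower than all mock libraries of the same pool, at levels near the 3-count limit of some libraries. Its heavy chain Slc3a2 had 0.25 ± 0.15 (SE, edgeR adjusted p = 0.259) and -0.09 ± 0.15 (SE, edgeR adjusted p = 0.677) in the pools, the leucine carrier Slc7a5 -0.07 ± 0.13 (SE, edgeR adjusted p = 0.763) and 0.25 ± 0.13 (SE, edgeR adjusted p = 0.161), and Slc7a6, an exchanger of cationic and neutral amino acids, 0.51 ± 0.14 (SE, edgeR adjusted p = 0.0169) and 0.19 ± 0.15 (SE, edgeR adjusted p = 0.361), so none of the other 3 genes of this set of heterodimers passed.

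Slc7a11 is known as a target of Atf4, the transcription factor of the amino acid response, which binds a composite element with the core TGATGNAAN. The promoters of RefSeq (GRCm38.p6, 250 bases before to 50 after each start site) were searched for this core on both strands, and 128 of the 168 members had at least 1 promoter there. The core was in 4 of 25 promoters of amino acid carriers (16%), in 0 of 20 of metal carriers, 0 of 40 of mitochondrial carriers and 4 of 90 of the others (4.44%), against 3.95% of all 32851 promoters. The 25 promoters of amino acid carriers belong to 16 genes, and the 4 with the core belong to Slc7a11, Slc1a4 and Slc7a7. Slc7a7 gave 2 of the 4, which overlap and hold the same copy of the core, so the 16% counts that copy 2 times. In 1 of these promoters the shared copy begins 1 base before the start site, and a separate copy begins 141 bases before it. The Slc7a11 stretch is shown because it holds 2 copies in opposite orientation, and the Slc1a4 stretch for comparison, with the cores in capitals, both read along the strand of the gene.
Slc7a11 (chr3:50443653-50443679, minus strand, 66 to 40 bases before the start site): TGATGCAAAcctggagaaTTTGCATCA
Slc1a4 (chr11:20332710-20332728, minus strand): tgcctcctgcGTTGCATCA
The Slc1a4 core begins 5 bases before the start site and runs across it, while both Slc7a11 copies lie wholly before theirs. The match is a description of letters, and binding was not measured here. Slc1a4, a carrier of alanine, serine and cysteine, had a log2 change of -0.61 ± 0.18 (SE, edgeR adjusted p = 0.0231) on polysomes and -0.80 ± 0.23 (SE, edgeR adjusted p = 0.0123) below them, and did not pass. Slc7a7, a light chain that exports cationic amino acids, had -0.14 ± 0.27 (SE, edgeR adjusted p = 0.766) and -0.68 ± 0.35 (SE, edgeR adjusted p = 0.149). The core TGCNCNC of the metal response element, searched likewise, was in 15 of 20 promoters of metal carriers (75%), but also in 51% of all promoters.

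Of 10 other genes of the amino acid response, 0 were higher and 2 lower on polysomes in METTL7A1 cells. Among all genes, 5.03% were higher there and 3.78% lower. Below polysomes, 1 of the 10 was higher and 3 were lower, beside 10.5% and 7.69% of all genes. Regardless of p-value, 2 of the 10 had a log2 change above 0 on polysomes and 3 in sub-polysomal RNA. Both that fell on polysomes are targets of the stress response: Chac1, which degrades glutathione (-1.86 ± 0.17 SE, edgeR adjusted p = 3.31e-07), and Trib3, a pseudokinase (-1.40 ± 0.17 SE, edgeR adjusted p = 9.20e-06). They also fell below polysomes, with log2 changes of -1.27 and -0.87, as did Psat1, an enzyme of serine synthesis, with -0.77, while Shmt2, the mitochondrial serine hydroxymethyltransferase, rose by 0.62. Atf4 itself had -0.09 ± 0.23 (SE, edgeR adjusted p = 0.83) on polysomes and 0.66 ± 0.23 (SE, edgeR adjusted p = 0.0321) below them. Of 5 genes of glutathione synthesis and its control, 0 passed in either pool.

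Of the 40 mitochondrial carriers, 1 was higher and 1 lower on polysomes (2.5% each), beside 5.03% and 3.78% of all genes. In sub-polysomal RNA 5 (12.5%) of these carriers were higher and 4 (10%) lower, beside 10.5% and 7.69%. Their median log2 change was -0.05 on polysomes and 0.01 below them (0.05 and 0.28 with Actb scaling). Slc25a48 (chr13:56438355-56474239) had 11.5, 11.0 and 8.69 CPM in mock and 21.5, 22.2 and 24.1 CPM in METTL7A1 polysomal libraries (log2 change 1.12 ± 0.18 SE, edgeR adjusted p = 2.45e-04), and rose by 1.26 ± 0.21 (SE, edgeR adjusted p = 2.05e-04) in sub-polysomal RNA. Slc25a30, a relative of the uncoupling proteins (chr14:75760117-75787037, minus strand), had 85.6, 91.7 and 79.05 CPM in mock and 47.1, 51.2 and 52.7 CPM in METTL7A1 polysomal libraries (log2 change -0.76 ± 0.13 SE, edgeR adjusted p = 5.59e-04). Its sub-polysomal levels fell from 79.005, 59.5 and 70.1 CPM to 30.8, 32.5 and 35.6 CPM (log2 change -1.06 ± 0.15 SE, edgeR adjusted p = 4.18e-05), and neither pool showed an overlap. The sub-polysomal changes beyond these ran in both directions. Slc25a45 rose (1.35 ± 0.23 SE, edgeR adjusted p = 2.97e-04), as did the glycine carrier of haem synthesis Slc25a38 (0.75 ± 0.16 SE, edgeR adjusted p = 0.0018), the glutamate carrier Slc25a22 (0.67 ± 0.18 SE, edgeR adjusted p = 0.00814) and the citrate carrier Slc25a1 (0.61 ± 0.12 SE, edgeR adjusted p = 0.00108). The ADP/ATP carriers Slc25a4 (-0.85 ± 0.15 SE, edgeR adjusted p = 4.02e-04) and Slc25a5 (-0.58 ± 0.15 SE, edgeR adjusted p = 0.0064) fell. Slc25a23, at a mean of 1.30 CPM, is the remaining one counted as lower, with a log2 change of -3.24 (edgeR adjusted p = 0.00336). It had 4, 13 and 10 counts in mock and 2, 1 and 0 in METTL7A1 sub-polysomal libraries, the latter below the floor of 3 counts. Slc25a23 met the level limit for members mainly through the mock libraries, so its fall carries little weight. Slc25a4 and Slc25a5 have near-identical copies in the genome, and the handling of reads that match several places is not stated for these counts. Of 10 genes of mitochondrial transport outside the family, 0 were higher and 1 lower on polysomes, and 3 were higher and 1 lower in sub-polysomal RNA. The lower one was Sfxn1, a serine carrier of the inner membrane, in both pools (-0.81 and -1.01), and the higher ones were Mpc1 and Mpc2, the subunits of the pyruvate carrier, and Timm22, of the import complex for carrier proteins.

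The proteins that partner with carriers or drive them gave 1 gene higher and 0 lower of 7 measured in each pool. On polysomes this was Atp1b1, a subunit of the sodium pump (1.04 ± 0.18 SE, edgeR adjusted p = 4.22e-04). In sub-polysomal RNA it was Bsg, the chaperone of the lactate carriers (0.80 ± 0.17 SE, edgeR adjusted p = 0.00187).

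GC content moved with the sub-polysomal difference between genotypes. Across the 166 members with an annotated coding transcript, Spearman's correlation between the GC content of the transcript and the log2 change was 0.49 in sub-polysomal RNA and 0.07 in polysomal RNA. Across 10821 genes the values were 0.44 and 0.14. These are descriptions across genes of the same libraries, and genes are not independent replicates. Among mitochondrial carriers it was 0.67 in sub-polysomal RNA (n = 40). With the GC offsets, an alternative chosen after the data were seen, 19 members were higher and 7 lower in sub-polysomal RNA in place of 28 and 7. Named mRNAs that no longer passed there were Slc1a5, Slc25a22, Slc25a38, Slc25a5, Slc39a3 and Slc39a13, with log2 changes of 0.30, 0.23, 0.41, -0.45, 0.34 and 0.23.

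**Figure D3:**
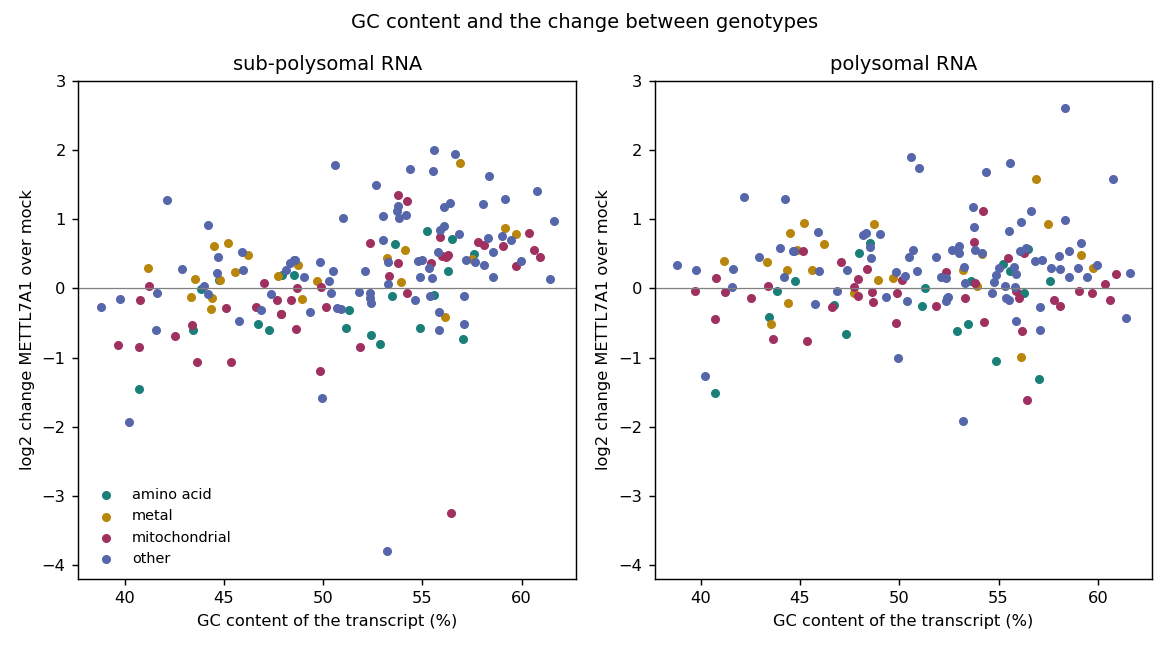
GC content of the transcript (horizontal axis, %) against the log2 change between METTL7A1 and mock cells (vertical axis) for 166 carrier mRNAs, in sub-polysomal RNA (left) and polysomal RNA (right), coloured by carrier group. The points climb with GC content on the left (correlation 0.49) and show little slope on the right (correlation 0.07).

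The split between the pools was then compared within each line, which asks how far a carrier mRNA sits on polysomes relative to other mRNAs. How much RNA each pool held is not given, so a log2 change of 0 does not mean an equal split between the pools. In mock cells, 31 members (18.5%) were higher and 14 (8.33%) lower in polysomal than in sub-polysomal RNA, beside 15.7% higher and 17.9% lower among all genes. In METTL7A1 cells, 43 (25.6%) were higher and 23 (13.7%) lower, beside 23% and 23.7%. Calls beyond a log2 change of 1.5 numbered 3 in mock cells (1.79%, beside 7.55% of all genes) and 6 in METTL7A1 cells (3.57%, beside 12.1%). The median log2 change of the members was 0.18 in mock and 0.25 in METTL7A1 cells, against 0.05 and 0.06 for all genes. Scaled to Actb, the counts were 11 higher and 12 lower for mock, against 16 and 31 for METTL7A1 cells, where that scaling moved the median of all genes to -0.18. Without mock sub-polysomal replicate B or C, or mock polysomal replicate A, 16, 18 or 19 members were higher in mock cells in place of 31. Of the lists, 22 mRNAs were higher in both lines (71.0% of the mock and 51.2% of the METTL7A1 list) and 11 were lower in both (78.6% and 47.8%).

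**Figure D4:**
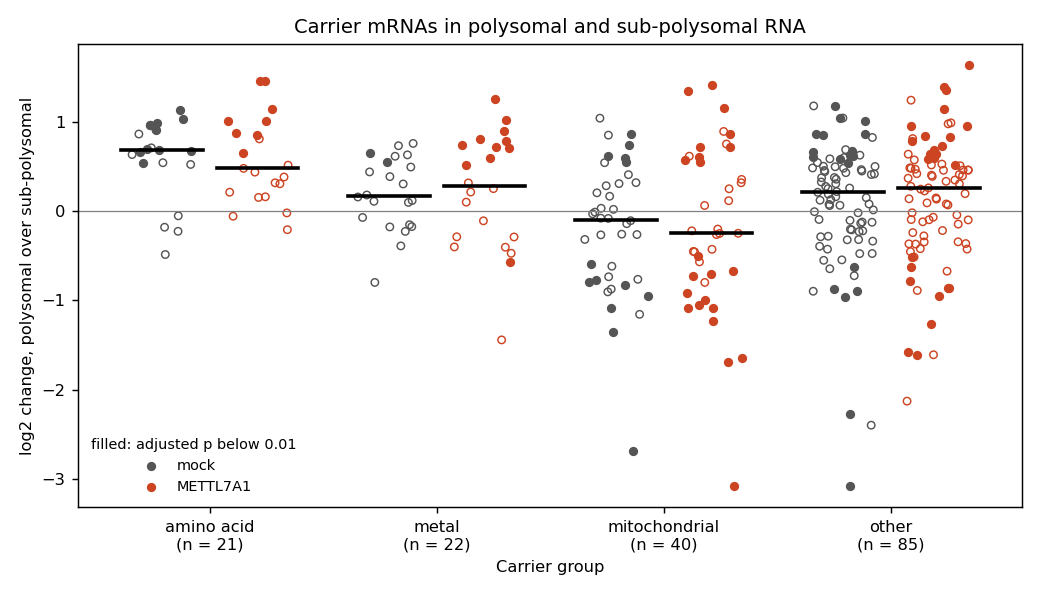
Log2 change from sub-polysomal to polysomal RNA (vertical axis) of each carrier mRNA in mock and METTL7A1 cells, by carrier group (horizontal axis), filled where the adjusted p was below 0.01, with black bars for medians. The medians of amino acid carriers (0.69 and 0.48) lie above 0 and those of mitochondrial carriers (-0.10 and -0.25) below it.

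Of the 21 amino acid carriers, 11 (52.4%) were higher on polysomes in mock cells, beside 15.7% of all genes. In METTL7A1 cells 8 (38.1%) were higher, beside 23%. None was lower in either line, beside 17.9% and 23.7% of all genes, and the median log2 changes of these carriers were 0.69 and 0.48. The 8 that were higher in both lines were Slc1a4, Slc36a4, Slc38a1, Slc38a2, Slc38a10, Slc6a6, Slc7a1 and Slc7a6, among which Slc7a1 imports arginine and lysine, Slc38a2 imports glutamine, and Slc36a4 carries proline and tryptophan. Slc6a6, the taurine carrier, had 55.3, 55.7 and 51.9 CPM in the sub-polysomal and 133, 106 and 116 CPM in the polysomal libraries of mock cells (log2 change 1.13 ± 0.15 SE, edgeR adjusted p = 9.60e-06). In METTL7A1 cells it had 42.4, 35.98 and 31.1 CPM and 111, 101 and 86.6 CPM (log2 change 1.45 ± 0.15 SE, edgeR adjusted p = 3.45e-07), so the polysomal libraries were higher by 2.18-fold and 2.74-fold. Slc38a1 was higher by 0.99 ± 0.16 (SE, edgeR adjusted p = 6.75e-05) in mock and 1.45 ± 0.16 (SE, edgeR adjusted p = 4.38e-07) in METTL7A1 cells on the log2 scale, and Slc38a10 by 1.03 ± 0.16 (SE, edgeR adjusted p = 3.34e-05) and 0.65 ± 0.15 (SE, edgeR adjusted p = 0.00124). With Slc6a6 counted among the other carriers, the medians of the amino acid carriers were 0.68 and 0.46.

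Of the heterodimer genes, the light chains Slc7a5 and Slc7a6 were higher on polysomes in mock cells, by 0.53 ± 0.13 (SE, edgeR adjusted p = 0.00305) and 0.69 ± 0.15 (SE, edgeR adjusted p = 9.19e-04), while the heavy chain Slc3a2 was not (-0.18 ± 0.15 SE, edgeR adjusted p = 0.321). Slc3a2 had 248, 281 and 263 CPM in the sub-polysomal and 216, 221 and 262 CPM in the polysomal libraries of mock cells, which overlapped on this TMM scale. Over the library totals alone, all 3 polysomal libraries were above all 3 sub-polysomal ones. In METTL7A1 cells Slc7a6 passed (1.01 ± 0.15 SE, edgeR adjusted p = 1.18e-05), and Slc7a5 (0.21 ± 0.13 SE, edgeR adjusted p = 0.178) and Slc3a2 (0.16 ± 0.15 SE, edgeR adjusted p = 0.366) did not. Slc7a11 passed in neither line (0.86 and 0.81).

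Mitochondrial carriers lay on both sides of 0. In mock cells 5 of 40 (12.5%) were higher and 8 (20%) lower on polysomes, beside 15.7% and 17.9% of all genes. In METTL7A1 cells 9 (22.5%) were higher and 13 (32.5%) lower, beside 23% and 23.7%. The median log2 changes of these carriers were -0.10 and -0.25. At the low end, Slc25a39, of mitochondrial glutathione import (chr11:102402985-102407544, minus strand), had 710.5, 1417 and 1097 CPM in the sub-polysomal and 96.0, 201 and 206 CPM in the polysomal libraries of mock cells (log2 change -2.68 ± 0.27 SE, edgeR adjusted p = 7.01e-07). In METTL7A1 cells it had 1174, 1428 and 1447 CPM and 135, 170.1 and 176 CPM (log2 change -3.07 ± 0.27 SE, edgeR adjusted p = 7.87e-08). On the TMM scale, sub-polysomal libraries thus held 6.42-fold and 8.41-fold more of this mRNA. Slc25a51, the carrier of NAD, was lower on polysomes, with log2 changes of -1.35 ± 0.17 (SE, edgeR adjusted p = 5.73e-06) and -1.09 ± 0.17 (SE, edgeR adjusted p = 2.36e-05). Slc25a28 and Slc25a37, the importers of iron, were lower in both lines too, with changes of -0.83 and -0.79 in mock and -1.08 and -0.99 in METTL7A1 cells. At the high end stood Slc25a24, an exchanger of ATP-Mg for phosphate (0.86 ± 0.19 SE, edgeR adjusted p = 0.00105, and 1.41 ± 0.19 SE, edgeR adjusted p = 6.44e-06), and Slc25a4, an ADP/ATP carrier, with 611, 509.9 and 587 CPM against 1093, 889.8 and 853 CPM in mock cells (log2 change 0.73 ± 0.15 SE, edgeR adjusted p = 6.40e-04) and a log2 change of 1.34 ± 0.15 (SE, edgeR adjusted p = 9.00e-07) in METTL7A1 cells. Of the 10 genes of mitochondrial transport outside the family, 0 were higher and 3 lower on polysomes in mock cells, and 1 was higher and 4 lower in METTL7A1 cells.

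**Figure D5:**
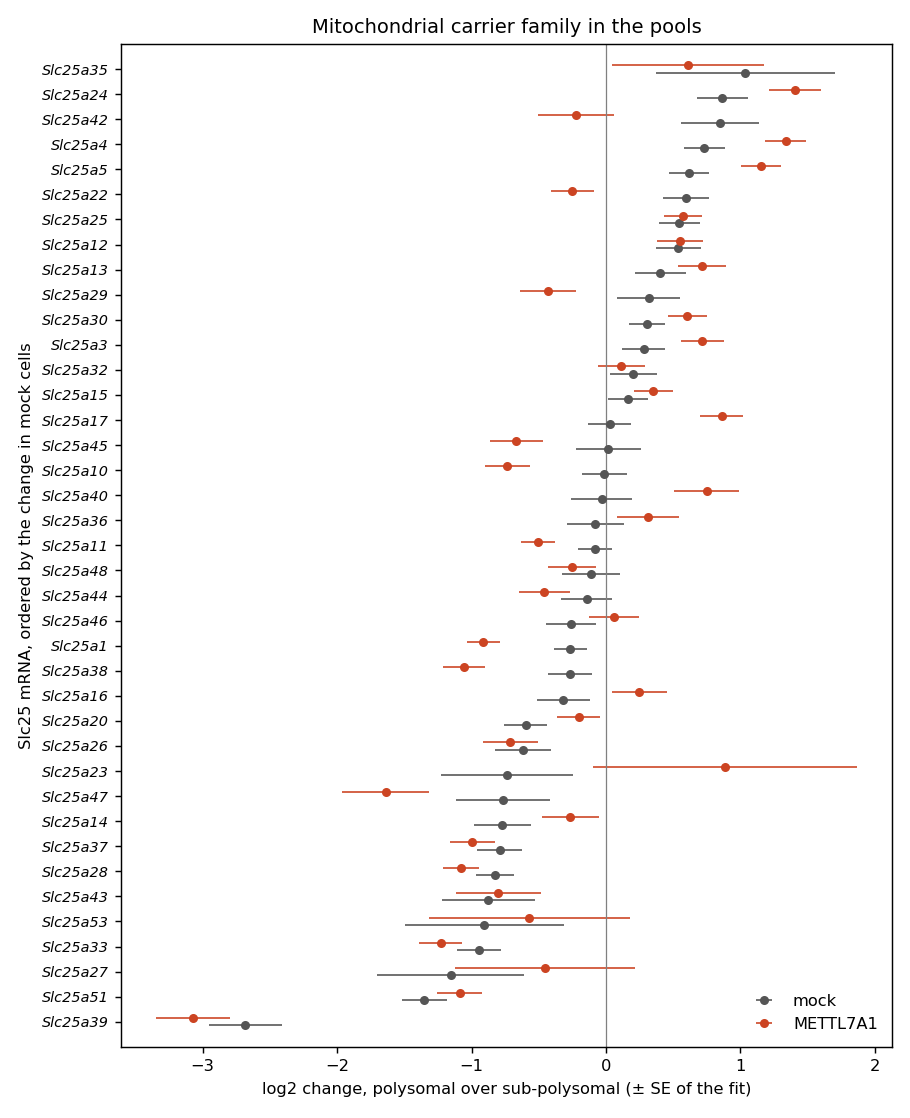
Log2 change from sub-polysomal to polysomal RNA (horizontal axis, ± SE of the fit) of 39 of the 40 Slc25 mRNAs (vertical axis, ordered by the change in mock cells) in mock and METTL7A1 cells. Slc25a39 stands lowest, at -2.68 and -3.07, and Slc25a24, Slc25a4 and Slc25a5 near the top in both lines.

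Metal carriers gave 2 higher (9.09%) and 0 lower in mock cells, beside 15.7% and 17.9% of all genes. In METTL7A1 cells they gave 10 higher (45.45%) and 1 lower (4.545%), beside 23% and 23.7%. The medians differed less than these counts, with log2 changes of 0.17 in mock and 0.28 in METTL7A1 cells. Their median shift between the lines, tested further on, was 0.03, and it passed for 0 of the 22. Slc39a11 was in both lists (0.65 ± 0.17 SE, edgeR adjusted p = 0.0045, and 0.60 ± 0.17 SE, edgeR adjusted p = 0.00521), Slc39a9 in the mock list (0.55 ± 0.14 SE, edgeR adjusted p = 0.0043), and Slc39a7 (1.26 ± 0.26 SE, edgeR adjusted p = 4.77e-04) and Slc41a2 (1.02 ± 0.22 SE, edgeR adjusted p = 5.40e-04) led the list of METTL7A1 cells. Slc39a1, the metal carrier with the highest level per kb, was lower on polysomes in METTL7A1 cells (-0.57 ± 0.16 SE, edgeR adjusted p = 0.00618) and had -0.39 ± 0.17 (SE, edgeR adjusted p = 0.0607) in mock cells. Of the 6 measured genes of zinc and copper handling outside the family, 1 was higher and 3 were lower on polysomes in each line. The higher one was Ccs, a copper chaperone, in mock cells (0.54, with 0.43 in METTL7A1 cells, which did not pass), and Atp7a, a copper pump, in METTL7A1 cells (3.13, with 1.47 in mock cells, which did not pass). The same 3 genes were lower in both lines, with Mt1 at -3.01 and -3.13, Mt2 at -2.97 and -3.11, and Atox1, another copper chaperone, at -2.46 and -2.96.

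Among the 85 other carriers, 13 (15.3%) were higher and 6 (7.06%) lower on polysomes in mock cells, beside 15.7% and 17.9% of all genes. In METTL7A1 cells 16 (18.8%) were higher and 9 (10.6%) lower, beside 23% and 23.7%. The ascorbate carrier Slc23a2 had 10.7, 8.81 and 13.0 CPM in the sub-polysomal and 29.1, 22.5 and 23.5 CPM in the polysomal libraries of mock cells (log2 change 1.17 ± 0.17 SE, edgeR adjusted p = 3.01e-05), and a log2 change of 1.36 ± 0.16 (SE, edgeR adjusted p = 1.16e-06) in METTL7A1 cells. Slc4a7, a cotransporter of sodium and bicarbonate, was higher by 1.04 ± 0.23 (SE, edgeR adjusted p = 0.0013) and 1.38 ± 0.23 (SE, edgeR adjusted p = 4.84e-05), and Slc5a3, the importer of inositol, by 1.01 ± 0.25 (SE, edgeR adjusted p = 0.0026) and 1.63 ± 0.26 (SE, edgeR adjusted p = 2.67e-05), the largest positive change of any member in METTL7A1 cells. At the low end, Slc35a4, of the nucleotide sugar carrier family, had 132, 148 and 140.0 CPM against 44.8, 83.3 and 86.7 CPM in mock (log2 change -0.97 ± 0.20 SE, edgeR adjusted p = 5.28e-04) and 247, 263 and 247 CPM against 69.2, 80.4 and 98.5 CPM in METTL7A1 cells (log2 change -1.61 ± 0.19 SE, edgeR adjusted p = 1.59e-06). Slc48a1, the haem carrier of lysosomes, was lower on polysomes, with log2 changes of -0.89 ± 0.18 (SE, edgeR adjusted p = 4.79e-04) and -1.26 ± 0.17 (SE, edgeR adjusted p = 7.14e-06). The genes named after a carrier that are none, such as Slc7a6os, which lies beside Slc7a6 in the genome, gave 2 lower in mock and 3 lower in METTL7A1 cells of 5.

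What the carrier mRNAs shared in sequence was taken from the GENCODE M21 transcripts. The coding sequence had a median of 1545 bases for amino acid carriers, 1446 for metal carriers, 951 for mitochondrial carriers and 1728 for the others, against 1374 for all genes. Spearman's correlation between coding length and the polysomal to sub-polysomal change was 0.55 in mock cells over 10821 genes, 0.34 over the 166 members and -0.07 within the 40 mitochondrial carriers, as a description across genes. GC content had a correlation of -0.08 with that change in mock cells and -0.42 in METTL7A1 cells over the members. An ATG upstream of the start codon was annotated in 61.1% of the 162 members with a 5′ leader of at least 20 bases, against 53.0% of all genes. Among mitochondrial mRNAs it was in 7 of the 8 that were lower on polysomes in mock cells and 2 of the 5 that were higher, but in 8 of 13 and 5 of 9 in METTL7A1 cells. Among the other carriers it was in 3 of 5 that were lower and 11 of 13 that were higher in mock cells. The difference between these shares was not tested. Slc35a4 has 18 such ATGs in its leader of 1099 bases. A purine 3 bases before the ATG together with a G just after it, the main letters of the start context, stood in 71.4% of amino acid carriers, 27.3% of metal carriers, 50% of mitochondrial carriers and 46.4% of all genes. The start regions of mRNAs from both ends of the split are shown with the ATG and these positions in capitals, since they let the context be compared directly.
Slc6a6 (chr6, first coding base 91723293, plus strand): aacgaaGagATGGccacgaag
Slc38a1 (chr15, first coding base 96624077, minus strand): acaccgAatATGAtgcatttc
Slc25a24 (chr3, first coding base 109123205, plus strand): cccgggAccATGCtgcgctgg
Slc25a4 (chr8, first coding base 46210922, minus strand): gctttcAgcATGGgggatcag
Slc25a39 (chr11, first coding base 102406639, minus strand): aattccAagATGGatgatcag
Slc25a51 (chr4, first coding base 45400137, minus strand): ggaagcAccATGAtggactcc
The first 4 were higher on polysomes in both lines and the last 2 lower, and each has a purine 3 bases before the ATG. Slc25a39, the lowest, and Slc6a6, among the highest, both also have the G.

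The shift to polysomes, the difference between METTL7A1 and mock cells in the polysomal to sub-polysomal change, was tested as an interaction. It passed for 0 of the 168 members and for 0% of all genes in the quasi-likelihood test of edgeR. Without adjustment, p was under 0.05 for 26 members and 1911 genes, limma-voom gave 0 genes, and DESeq2 gave 1 member, Slc25a1, among 33 genes with a higher and 31 with a lower shift. The median shift of the members was 0.02 on the log2 scale, against -0.01 for all genes. The 4 members with the lowest p-values are given as values. Slc19a1 had a shift of -0.82 ± 0.21 (SE, edgeR adjusted p = 0.126), with a polysomal to sub-polysomal change of 0.58 in mock and -0.24 in METTL7A1 cells. Slc25a1, the citrate carrier, had -0.65 ± 0.17 (SE, edgeR adjusted p = 0.129), with 89.2, 109.8 and 103 CPM below and 84.4, 81.1 and 86.7 CPM on polysomes in mock cells, and 152, 156 and 155 CPM and 78.8, 85.0 and 82.2 CPM in METTL7A1 cells. Slc25a22 had -0.84 ± 0.24 (SE, edgeR adjusted p = 0.129). The opposite sign was seen for Slc25a17, a peroxisomal member of the Slc25 family (0.83 ± 0.23 SE, edgeR adjusted p = 0.129), with 80.7, 55.4 and 64.2 CPM below and 74.0, 63.9 and 64.3 CPM on polysomes in mock cells, and 47.4, 63.5 and 51.2 CPM and 112, 88.3 and 94.3 CPM in METTL7A1 cells. Spearman's correlation between the shift and GC content was -0.59 over the members and -0.48 over 10821 genes, and with the GC offsets the shift again passed for 0 members.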

How the data were processed

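RNA-Seq counts per gene were deposited by the authors for 12 libraries of sub-polysomal and polysomal RNA of mock and METTL7A1 4T1 cells, with no normalization. The submitters' processing notes name bcl2fastq 2.20.0.422, STAR 2.5.3a, featureCounts and R 3.5.1 with mouse build GRCm38, and strand and multiple-match settings are not given in the sources used here. Members were matched by symbol among 55376 listed genes. Members and lists were chosen with earlier results of these data known.

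The 12224 genes that reached 1 CPM in 3 or more of 12 libraries were fitted in edgeR 4.0.16 (R 4.3.3) with TMM factors and 1 mean per group, and 5 contrasts were tested by the quasi-likelihood test with Benjamini-Hochberg adjustment over all of them. The threshold was an adjusted p of 0.01, and calls needed a log2 change beyond 1.5. The fit was tested on simulated data. Named genes were, per carrier group, the 4 largest changes each way between genotypes and the 2 highest and 2 lowest between pools among those past the threshold with a mean of at least 5 CPM, the 4 lowest p-values for the shift, the 3 highest levels per kb, and Slc3a2 with its partners. A gene that this rule takes is not reported here. Lists of genes outside the family covered the amino acid response, glutathione, zinc and copper handling, mitochondrial transport, and carrier partners and pumps.

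Alternatives were RLE, upper-quartile and Actb scaling, DESeq2 1.42.0, limma-voom (limma 3.58.1), no filter, at least 10 counts in every library, an adjusted p of 0.05, thinning to the smallest library, only the 6 libraries compared, the replicate letter as a block, leaving out each library, and Slc6a6 among other carriers. Offsets for GC content (lowess span 0.3, 12157 genes) were added after seeing the data. Transcript features came from GENCODE M21 and promoters from RefSeq (GRCm38.p6). The floor of 3 counts equals 0.431 to 1.65 CPM of the library totals and covers counting error only. Python 3.11.15 and pandas 2.3.3 were used.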

Additional observations from a re-analysis of the deposited data

How the results depend on the processing

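Counts of carrier mRNAs moved by more than 1.5 times as follows. At an adjusted p below 0.05, 37 were higher and 8 lower on polysomes in METTL7A1 cells (19 and 4 at 0.01), 12 were lower in sub-polysomal RNA (7), and 48 were higher on polysomes in mock cells (31). Scaled to Actb, 2 were lower on polysomes and 4 below them between genotypes, and 11 and 16 were higher on polysomes in mock and METTL7A1 cells (31 and 43). With at least 10 counts in every library, which tests fewer genes, 2 were lower and 3 called on polysomes, 4 were lower and 3 called below them, and 1 was called between the pools of mock cells (3). Thinned to the smallest library, 2 were lower on polysomes between genotypes and 20 higher on polysomes in mock cells. Fitted with only the 6 libraries compared, that last count was 14. With GC offsets, 5 were called in sub-polysomal RNA (8), and with DESeq2 1 passed for the shift. The causes were not tested beyond the number of genes or samples that a setting itself removes.

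Leaving out 1 library gave 13 to 21 members higher, 2 to 5 lower and 5 to 8 called on polysomes between genotypes, and 22 to 30, 4 to 8 and 7 to 9 in sub-polysomal RNA. Between the pools it gave 16 to 30 higher, 11 to 15 lower and 3 called in mock cells, and 31 to 45, 17 to 26 and 4 to 9 in METTL7A1 cells. The shift passed for 0 members each time.

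Signs turned for a few log2 changes, none past the threshold. With Actb scaling Slc7a5 had 0.0328 on polysomes and -0.0319 between the pools of METTL7A1 cells, and Slc3a2 had 0.18 in sub-polysomal RNA and -0.091 between the pools of METTL7A1 cells. In sub-polysomal RNA Slc7a5 had -0.12 with GC offsets, and Slc3a2 lay between -0.2098 and 0.0084 when 1 library was left out. The shift of Slc7a11 was 0.37 after thinning, 0.0363 with the letter as a block, and -0.3404 to 0.3559 when 1 library was left out.

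Each replicate letter names a sub-polysomal and a polysomal library, and whether these came from the same gradient is not stated. Correlations of deviations of same-letter libraries were 0.11, -0.11 and -0.29 for A to C, and 0.04, 0.02 and 0.05 for D to F. Such correlations cannot show that the libraries were unpaired, and the main fit left the letter out. With the letter as a replicate block, 26 members were higher and 13 lower on polysomes in mock cells, and 44 and 20 in METTL7A1 cells.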
